A study of Mus musculus with 6 samples.

Results

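Fgf2, the gene of basic fibroblast growth factor, was read together with Nudt6, the gene on its opposite strand, the related ligand genes Fgf1 and Fgf9, and the receptor genes Fgfr1, Fgfr2 and Fgfr3. Every probe set that the array's annotation assigns to 1 of these 7 genes alone was taken, whatever its level, which gave 7 of the 18193 genes with a probe set of their own and 16 of the 45037 non-control probe sets. The genes were picked with earlier results of the same comparison known, among them the higher Fgf2 value after light damage. Their values are therefore given as a description, and no p-value is given for any of the 7. Total RNA came from retinas of BALBc mice, an albino strain, and was hybridised to 6 Affymetrix arrays. All mice, controls included, had first spent 1 week in darkness. The 3 dark adapted arrays hold retinas of mice that stayed without the damaging light. The 3 light damaged arrays hold retinas taken 24 h after 6 h under white fluorescent light of 6000 lux. No genotype, sex or age is stated in the sources used here, nor whether each array was 1 animal, so the spread between arrays may be partly technical.

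Fibroblast growth factors are secreted proteins that bind a receptor tyrosine kinase together with heparan sulfate, a sugar chain of the cell surface. The receptor then passes the signal through adaptor proteins to the RAS and MAP kinase cascade, which switches on its own inhibitors. In the retina basic fibroblast growth factor is known as a survival factor of photoreceptors, made after injury by Müller glia and by photoreceptors. Nudt6 encodes a nudix hydrolase, and its transcript is also known as the antisense RNA of Fgf2, since its end overlaps that of Fgf2 on the other strand.

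In the RefSeq gene table Fgf2 lies on chromosome 3 between Bbs12 and Nudt6, it overlaps Nudt6, and Nudt6 in turn overlaps Spata5. The array's annotation gives no probe positions, so the values of Fgf2 and Nudt6 cannot be taken as separate wherever a probe set lies in the overlap. Because readings of both genes were higher after light damage, the 250 bases before the start of each are shown, from RefSeq on build GRCm38.p6. Capitals mark the motifs that were found. Fgf2 is read from the plus strand (chr3:37348403-37348652) and Nudt6 from the minus strand (chr3:37419597-37419846), each 5′ to 3′.
Fgf2: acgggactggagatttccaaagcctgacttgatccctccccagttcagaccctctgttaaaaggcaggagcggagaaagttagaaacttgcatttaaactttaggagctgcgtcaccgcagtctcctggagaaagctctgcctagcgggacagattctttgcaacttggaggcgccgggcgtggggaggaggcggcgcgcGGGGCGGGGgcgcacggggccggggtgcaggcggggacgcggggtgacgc
Nudt6: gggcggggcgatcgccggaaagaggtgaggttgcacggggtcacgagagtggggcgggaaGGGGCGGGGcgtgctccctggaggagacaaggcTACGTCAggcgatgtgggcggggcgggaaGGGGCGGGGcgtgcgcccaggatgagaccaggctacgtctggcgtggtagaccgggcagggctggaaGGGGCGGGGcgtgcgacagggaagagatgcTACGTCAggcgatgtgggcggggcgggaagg
Both strands were searched for 5 motifs. They were TTCNNNGAA (bound by STAT factors), TGANTCA (AP-1), TTGCNNAA (C/EBP), TACGTCA (resembling a cyclic AMP response element) and GGGGCGGGG (a GC box). The Fgf2 window held 1 GC box, which began 50 bases before the start. The Nudt6 window held 3 GC boxes and 2 copies of TACGTCA, none of them overlapping. They lie in stretches of nearly the same sequence that recur along the window, so they are not independent finds. Of 32851 windows of this length over all genes, 10.4% held the GC box and 1.08% held TACGTCA. The other letters searched were in neither window, against 7.02% of all windows for TTCNNNGAA, 6.75% for TGANTCA and 9.56% for TTGCNNAA. The 2 windows were rich in G and C, with 62.4% in Fgf2 and 71.6% in Nudt6, where the median over all windows was 52.4%. The table held 6 windows for 5 of the 7 genes, and of the 4 other windows, those of Fgf9, Fgfr2 and Fgfr3, 1 held a motif, TACGTCA in Fgf9.

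The single probe set of Fgf2 was low in the dark and higher in every light damaged retina. Its log2 level in the dark adapted arrays, replicates 1 to 3, was 4.52, 4.41 and 4.72. In the light damaged arrays it was 6.56, 5.47 and 6.77. The groups did not overlap, and light damaged replicate 2 stood well below the other 2. The mean went from 4.55 ± 0.16 to 6.27 ± 0.70 (SD, n = 3 per group), a log2 change of 1.72 ± 0.32 (SE of the limma fit). All 3 dark values lay under the lower quartile of their own array, which was no lower than 4.98 on any of the 6. At that level the RMA method (robust multi-array average) compresses differences, so the fold is uncertain. Of all 45037 probe sets 106 had a change as high as that of Fgf2 or higher, itself counted.

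**Figure D1:**
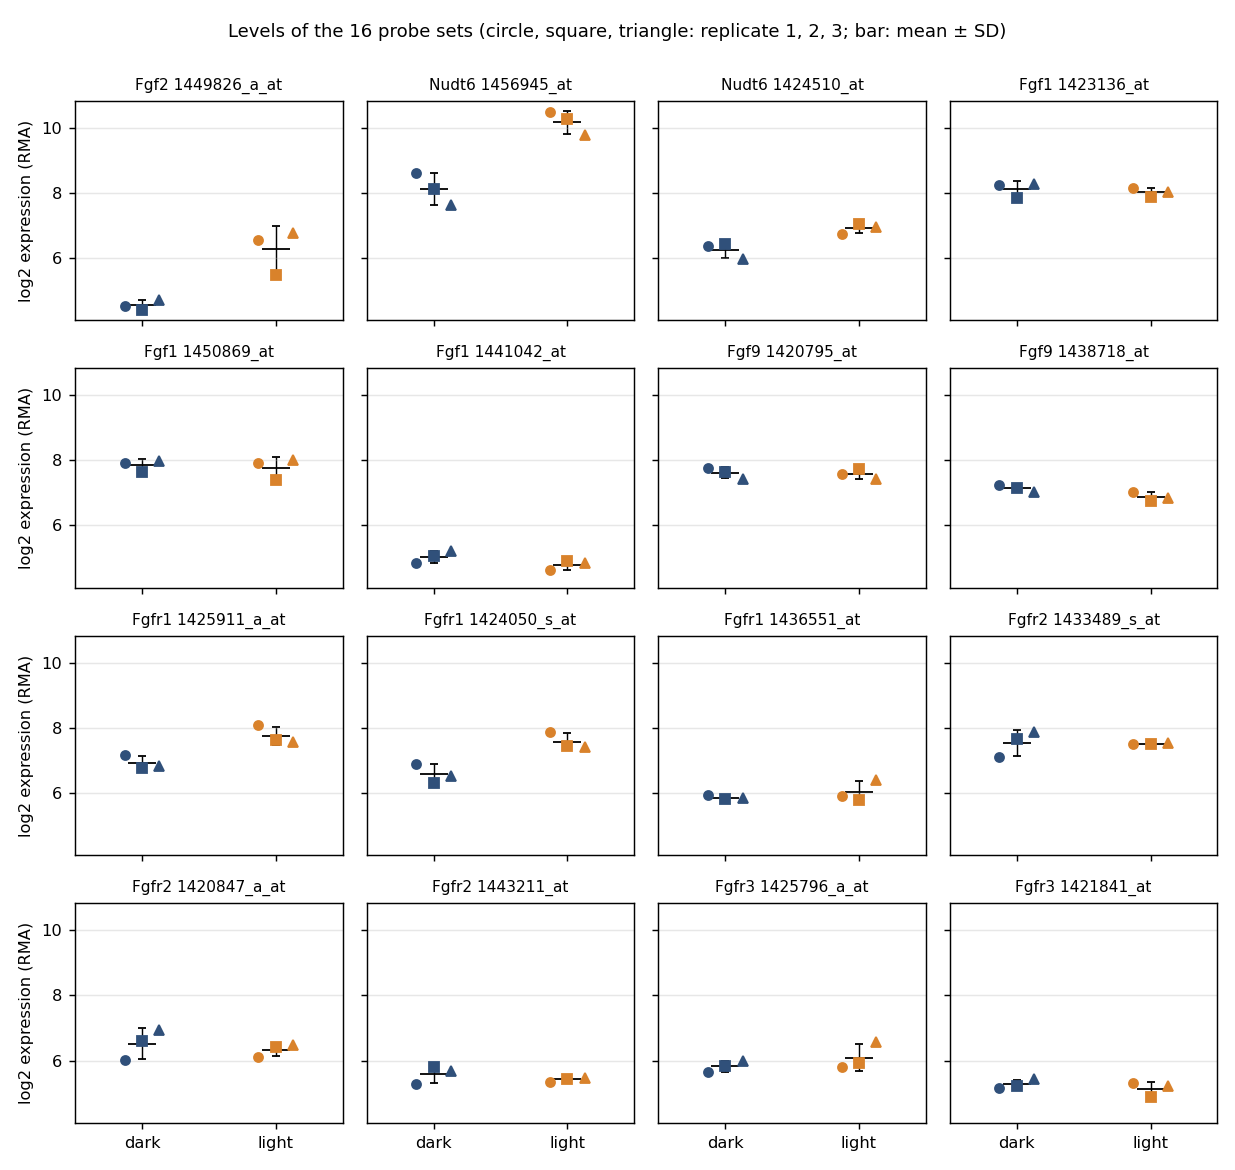
Log2 expression (vertical axis, RMA values) of each of the 16 probe sets in the 3 dark adapted (dark, blue) and 3 light damaged (light, orange) retinas, with the replicate number shown by the symbol and the mean ± SD in black. The Fgf2 panel shows dark values between 4.41 and 4.72 and light damaged values between 5.47 and 6.77, and in the Nudt6 1456945_at panel the dark values reach 8.62 and the light damaged values start at 9.78.

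Nudt6 was read by 2 probe sets, both higher after light damage but by unequal amounts. Probe set 1456945_at stood at 8.62, 8.11 and 7.63 in the dark adapted and at 10.47, 10.26 and 9.78 in the light damaged arrays. The groups lay more than 1 log2 unit apart, and in both the array of replicate 3 was the lowest. The change was 2.05 ± 0.28 (SE), a 4.13-fold rise, with group means of 8.12 ± 0.50 and 10.17 ± 0.36 (SD, n = 3 each). Probe set 1424510_at gave 6.37, 6.44 and 5.96 in the dark adapted and 6.75, 7.03 and 6.95 in the light damaged arrays. These groups were also apart, and the change of 0.65 ± 0.16 (SE), or 1.57-fold, was well below that of the first probe set. Centring on the reference genes, which lowers every change alike, gave 0.34. Those reference genes were themselves mostly higher after light damage, with a median change of 0.27. Both probe sets are assigned to Nudt6 by the platform annotation of the array. Which strand or exon each of them reads was not tested.

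In all 5 probe sets of the other 2 ligands the groups overlapped. Fgf1, or acidic fibroblast growth factor, binds all the fibroblast growth factor receptors. Its brightest probe set, 1423136_at, read 8.25, 7.83 and 8.27 in the dark adapted and 8.15, 7.87 and 8.02 in the light damaged arrays, with all light damaged values inside the dark range. The change was -0.11 ± 0.16 (SE), and the 3 Fgf1 probe sets lay between -0.25 and -0.07, or between -0.56 and -0.38 after centring on the reference genes. The lowest of them, 1441042_at, was under the lower quartile of its array on 5 of 6 arrays. Fgf9 encodes a ligand that acts mainly through Fgfr2 and Fgfr3. Its probe set 1420795_at read 7.78, 7.65 and 7.43 in the dark adapted and 7.58, 7.72 and 7.43 in the light damaged arrays. The lowest array was replicate 3 in both groups, and the change was -0.04 ± 0.14 (SE), while 1438718_at gave -0.26 ± 0.13 (SE). After centring on the reference genes these were -0.35 and -0.57.

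Among the receptors, 2 of 3 probe sets of Fgfr1 were higher after light damage. Probe set 1424050_s_at read 6.90, 6.30 and 6.52 in the dark adapted and 7.87, 7.44 and 7.42 in the light damaged arrays. Probe set 1425911_a_at read 7.18, 6.76 and 6.84, and then 8.07, 7.64 and 7.57. Neither pair of groups overlapped, and replicate 1 was the highest array within each group in both probe sets. The changes were 1.00 ± 0.20 and 0.84 ± 0.18 (SE), or 0.69 and 0.52 after centring on the reference genes. The first of these probe sets carries the suffix that Affymetrix gives to probes shared by several transcripts, so its reading is less certain. The third, 1436551_at, differed from both. It read 5.93, 5.82 and 5.83 in the dark adapted and 5.91, 5.78 and 6.40 in the light damaged arrays. Only light damaged replicate 3 was above the dark range, and the change was 0.17 ± 0.18 (SE), or -0.14 after centring on the reference genes.

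Fgfr2 and Fgfr3, the other 2 receptor genes, overlapped between the groups in all 5 of their probe sets. For Fgfr2, 1433489_s_at read 7.09, 7.65 and 7.86 in the dark adapted and 7.51, 7.52 and 7.53 in the light damaged arrays. The dark values spread widely around the tight light damaged ones, and the change was -0.02 ± 0.20 (SE). This probe set carries the same suffix as Fgfr1 1424050_s_at, so its reading is less certain too. The 3 Fgfr2 probe sets lay between -0.18 and -0.02. For Fgfr3, 1425796_a_at read 5.66, 5.84 and 5.99 in the dark adapted and 5.80, 5.91 and 6.56 in the light damaged arrays. Here too light damaged replicate 3 alone stood above the dark range, and the change was 0.26 ± 0.21 (SE), or -0.05 after centring on the reference genes. The second Fgfr3 probe set, 1421841_at, had a change of the other sign, -0.14 ± 0.15 (SE).

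Of the 16 probe sets, 5 did not overlap between the groups, all of them higher after light damage: the Fgf2 probe set, both of Nudt6 and 2 of Fgfr1. Over all probe sets 8.99% were apart and higher, and 4.21% apart and lower. In the limma fit over all probe sets 1 of the 16 passed an adjusted p of 0.05 (Benjamini-Hochberg), Nudt6 1456945_at, where 0.913% of all probe sets were called higher and 0.104% lower. Nudt6 1456945_at was not called without light damaged replicate 1, 2 or 3 or without dark adapted replicate 2. The Fgf2 probe set was not among those called with all 6 arrays, and was called without light damaged replicate 2, where its change was 2.12. With all 6 arrays and a change of 1.72 it was also called when only 1 probe set per gene was tested. It was called too when probe sets with a mean at or below the lower quartile were left out, but it passes that filter only through its light damaged values, so this call carries no weight. The median change was -0.03 over the 16 and 0.01 over all probe sets. Since the genes were picked from this comparison, these counts describe them and carry no further weight.

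**Figure D2:**
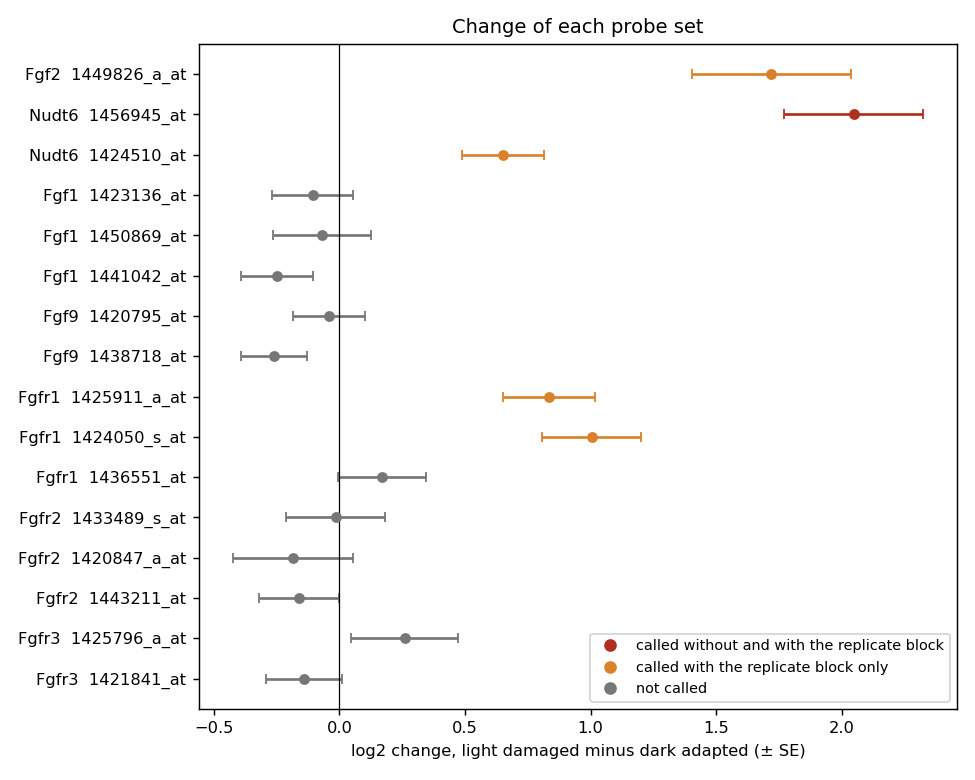
Log2 change of each probe set, light damaged minus dark adapted, as a point with its SE (horizontal axis), coloured by whether the fit over all probe sets called it. The points of Fgf2 (1.72), Nudt6 (2.05 and 0.65) and 2 of Fgfr1 (0.84 and 1.00) stand to the right, and the other 11 lie between -0.26 and 0.26.

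Arrays with the same replicate number deviated together from their group means, with correlations over probe sets of 0.731, 0.618 and 0.432 for numbers 1 to 3. The number was therefore also used as a block, as a pairing inferred from these data and not stated by the labels. With the block 5 of the 16 probe sets were called, the same 5 whose groups did not overlap, where 3.48% of all probe sets were called higher and 1.2% lower. Within numbers 1, 2 and 3 Fgf2 was higher by 2.05, 1.06 and 2.05 on the log2 scale. For Nudt6 1456945_at the 3 differences were 1.85, 2.14 and 2.15. Number 2 was thus the smallest difference for Fgf2 but not for this probe set of Nudt6. For Nudt6 1424510_at they were 0.38, 0.59 and 0.98. The 2 higher Fgfr1 probe sets differed little between numbers, with 0.97, 1.14 and 0.91 for 1424050_s_at and 0.90, 0.88 and 0.73 for 1425911_a_at. The third Fgfr1 probe set gave -0.02, -0.04 and 0.57. Fgf9 1438718_at was lower in every number (-0.21, -0.39 and -0.18), as was the dim Fgf1 1441042_at (-0.22, -0.15 and -0.37). Fgfr3 1425796_a_at was higher in every number (0.15, 0.07 and 0.56). None of these was called with the block.

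**Figure D3:**
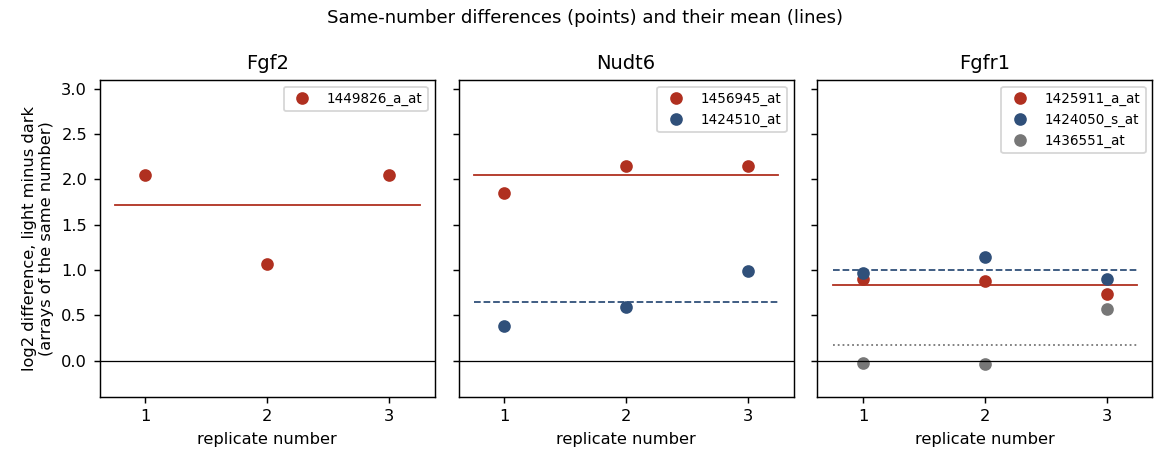
Log2 difference between the light damaged and the dark adapted array of the same replicate number (points) and the mean of the 3 (lines) for each probe set of Fgf2, Nudt6 and Fgfr1. The Fgf2 point of number 2 lies at 1.06, below the 2.05 of the other two, while the Nudt6 1456945_at points lie between 1.85 and 2.15.

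Marker genes of the cells in the samples moved as well. Their lists, like the 7 genes, were drawn up with earlier results of these data known, so the counts are a description. Over all 18193 genes 1.3% rose and 0.159% fell, and with the block 4.58% rose and 1.41% fell. Of 8 measured rod genes all had negative changes and none passed the test, with a mean log2 level per array of 11.52 to 12.06 in the dark adapted and 10.96 to 11.39 in the light damaged group; with the block 5 fell. Of 7 cone genes 3 fell, and 4 with the block, with mean levels of 9.19 to 9.73 in the dark adapted and 8.65 to 8.92 in the light damaged group. In bulk tissue fewer cells of a type and less RNA per cell cannot be told apart. All 8 genes of the reactive glia list rose: Gfap, Lcn2, Osmr, Serpina3n, Cd44, Edn2, Stat3 and Socs3. Their mean levels were 6.65 to 7.13 in the dark adapted and 9.38 to 9.72 in the light damaged group. Edn2 is not specific to glia, and which cells made each of the 8 was not tested. Gfap also counts among the astrocyte genes. Of 5 astrocyte genes 2 rose, with and without the block, with mean levels of 6.73 to 6.95 and 7.48 to 7.88. Of 10 Müller glia genes 1 rose (3 rose and 1 fell with the block), and their mean level overlapped between the groups (9.47 to 9.82 against 9.57 to 9.95). Of 10 microglia and macrophage genes 2 rose (3 rose and 1 fell with the block), with mean levels of 6.18 to 6.43 and 6.64 to 6.82. None of 11 retinal pigment epithelium genes passed (1 fell with the block), and their levels overlapped (6.71 to 7.08 against 6.68 to 7.27). None of 8 lens genes passed (2 fell with the block), but their mean level ran from 9.69 to 11.62 in the dark adapted and from 9.18 to 10.98 in the light damaged group, with replicate 3 the highest in both. The lens level was lower in the light damaged array of every replicate number. None of 8 vascular and 4 blood cell genes passed, with or without the block. The part of these cells in the values of Fgf2, Nudt6 and Fgfr1 was not tested.

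Beyond these genes, 111 other genes of the pathway were read, each by its probe set of highest mean, in 7 lists drawn up with earlier results known. In the same fit 4 of them rose and none fell, while 1.3% of all 18193 genes rose and 0.159% fell. Centred on the reference genes 2 rose and 1 fell. With the replicate block 19 rose (4.58% of all genes) and 1 fell (1.41%). The median change was 0.09, against 0.03 over all genes. Of these 4 genes 3 were in the list of feedback and target genes, and the fourth was Cd44, which is also on the reactive glia list.

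None of the 21 other ligand and binding protein genes passed the test, with or without the block, and their changes ran from -0.42 to 0.18. The smallest p belonged to Fgfbp3, whose protein releases fibroblast growth factors from the matrix (-0.42 ± 0.17, SE, limma adjusted p = 0.549). Of 9 further receptor and coreceptor genes none passed by the probe set of highest mean. Cdh2, which encodes the adhesion molecule N-cadherin, had the smallest p (0.61 ± 0.26, SE, limma adjusted p = 0.566, and 0.0269 with the block). Its second probe set did rise, by 0.92 (limma adjusted p = 0.0221). Of 18 signal relay genes none passed, and the 13 positive changes among them brought the median to 0.22. Akt1, a kinase downstream of the receptor, came closest (0.65 ± 0.18, SE, limma adjusted p = 0.22, and 0.0181 with the block), but 2 of its 4 probe sets had changes of the other sign (-0.09 and -0.14).

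The feedback and target genes held most of the rises. Of 22 measured genes 3 rose and 19 were not called, and with the block 10 rose; the median of the 22 changes was 0.47. Dusp6 encodes a phosphatase that switches off the MAP kinase ERK. It went from 6.86 ± 0.32 to 8.55 ± 0.54 (SD, n = 3 per group), a change of 1.69 ± 0.28 (SE, limma adjusted p = 0.0422). Its call was lost when any 1 array other than light damaged replicate 3 was left out, with an adjusted p of up to 0.173, and after centring on the reference genes (0.0579). Ccnd1 (cyclin D1, which drives entry into the cell cycle) rose by 1.49 ± 0.17 (SE, limma adjusted p = 0.00816), and all 3 of its probe sets had changes between 1.39 and 1.49. It lost the call without light damaged replicate 3 (0.0626). Myc, a transcription factor of growth, rose by 1.44 ± 0.20 (SE, limma adjusted p = 0.0185), and lost the call without light damaged replicate 1, 2 or 3, without dark adapted replicate 2 and after centring on the reference genes (up to 0.114). The 3 genes are also induced by other signals, and which signal raised them was not tested.

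Of 16 heparan sulfate proteoglycan genes, which hold the coreceptors of the ligand, 1 rose and none fell. It was Cd44, the hyaluronan receptor gene, of which some forms carry heparan sulfate (2.60 ± 0.25, SE, limma adjusted p = 0.00495). Of its 4 probe sets 1 had a change of the other sign (-0.20), and it lay under the lower quartile on all 6 arrays. The others changed by 2.34 to 2.70. With the block Gpc1 (glypican 1, 0.70), Agrn (agrin, 0.89) and Srgn (serglycin, 0.56) were called as well, named here after their values were seen. None of 22 genes that build or edit heparan sulfate passed. Sulf1, a sulfatase that trims the chain outside the cell, had the smallest p (1.07 ± 0.20, SE, limma adjusted p = 0.0701), and it passed with the block (0.00387) and when 1 probe set per gene was tested (0.0395). Another of its 3 probe sets gave -0.23. Named after their values were seen, its relative Sulf2 was called higher with the block (0.85) and the sulfotransferase gene Hs3st3b1 lower (-0.54).

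Next to Fgf2 on the chromosome, none of 3 genes read passed. Cetn4, a centrin gene, changed by 0.54 ± 0.13 (SE, limma adjusted p = 0.161, and 0.0308 with the block). Spata5, which overlaps Nudt6, read 8.17, 8.03 and 8.07 in the dark adapted and 8.41, 8.34 and 8.75 in the light damaged arrays. The Spata5 groups were apart too, and its change of 0.41 ± 0.15 (SE) was below both changes of Nudt6. Bbs12 overlapped between the groups (-0.11 ± 0.33, SE).

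**Figure D4:**
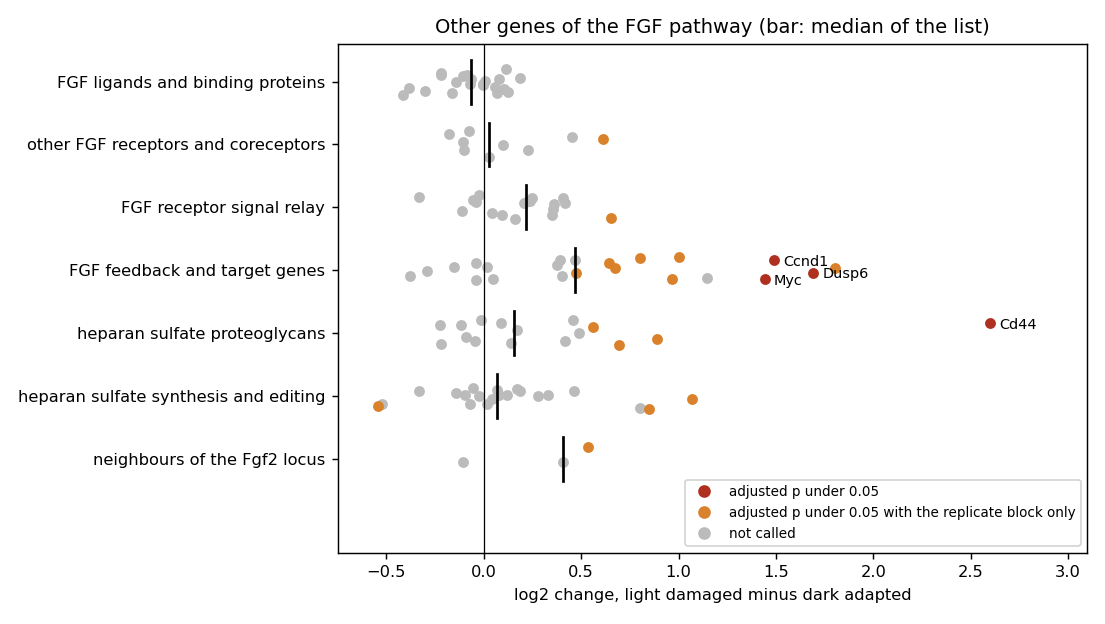
Log2 change, light damaged minus dark adapted (horizontal axis), of the 111 other pathway genes in 7 lists, with 1 point per gene, the median of each list as a bar and colours for the call. The red points are Dusp6, Ccnd1, Myc and Cd44 (1.69, 1.49, 1.44 and 2.60), and the ligand list stays between -0.42 and 0.18.

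The genes whose levels followed Fgf2 most closely were found by centring each gene on its own mean over the 6 arrays and taking the root mean square difference from Fgf2. Over all genes the 5 smallest differences were those of Ifit1, an interferon-induced gene (0.27 log2 units), Klf10, a zinc finger transcription factor (0.28), Cebpb, a transcription factor of the acute-phase response (0.31), Irf9, a partner of interferon-activated STAT factors (0.36), and Stat3, a transcription factor of cytokine signalling (0.37). Their changes were 1.98, 1.61, 1.69, 1.86 and 1.77, near the 1.72 of Fgf2. Light damaged replicate 2 was the lowest light damaged array in all 5, as in Fgf2, but by less: Ifit1 read 7.46, 6.77 and 7.26 in the light damaged arrays after 5.05, 5.10 and 5.40 in the dark. The measure rests on 6 arrays in 2 groups and picks genes by the values shown, so it is a description only. Stat3 is also on the reactive glia list, and another of its probe sets gave a change of -0.04.

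**Figure D5:**
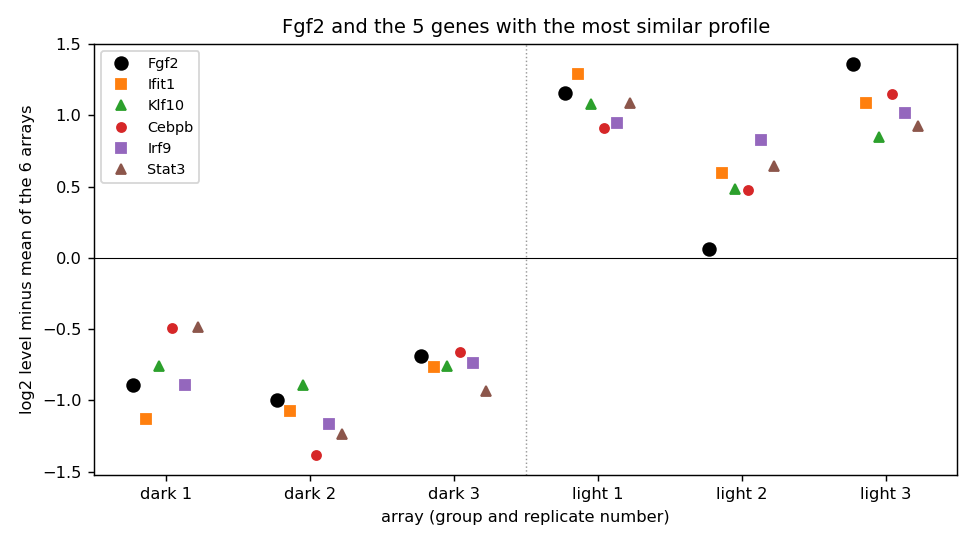
Log2 level minus the mean of the 6 arrays (vertical axis) on each array (horizontal axis) for Fgf2 (black) and the 5 genes with the most similar profile. All 6 genes are below 0 on the dark adapted and above 0 on the light damaged arrays, and Fgf2 is the lowest of them on light damaged replicate 2.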

How the data were processed

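Total RNA of the 6 retina samples was hybridised to Affymetrix arrays and grouped by the sample titles. The deposited values are log2 expression values that the authors made with RMA, per the submitters' processing notes, which state no version. The log2 scale was judged from the range of 3.30 to 13.89. They were used without further scaling. Of 45101 probe sets 64 controls were left out; 34945 of the rest had 1 gene in the platform annotation, 932 several and 9160 none. Symbols were matched by Entrez identifier to RefSeq (GRCm38.p6), which held 34741 of them and changed 0.

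Groups were compared with limma 3.58.1 in R 4.3.3 (lmFit, eBayes without a trend), with Benjamini-Hochberg adjustment over all 45037 probe sets and a threshold of 0.05. The fit without the replicate block was tested on simulated arrays with independent errors. Those arrays lacked the correlation found here between arrays of the same number, and the fit with the block was not tested this way. For genes other than the 7, the probe set of highest mean was used. Up to 3 genes per list past the threshold with the largest change were named, or else the one with the smallest p. The 7 genes and all lists were chosen with earlier results of these data known. The number of arrays limits the precision. Alternatives were the replicate block, an intensity trend, quantile normalization, centring on 7 reference genes or array medians, no dim probe sets, 1 probe set per gene, no cross-matching probe sets (_s_at and _x_at), and each array left out.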

Additional observations from a re-analysis of the deposited data

How the results depend on the processing

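The Fgf2 change kept its sign in all alternatives run, between 1.41 centred on the reference genes and, with 1 array left out, 1.47 and 2.12. With the replicate block and 1 number left out of both groups, chosen after seeing the data, it was 1.56, 2.05 and 1.55, and 5 of the 16 probe sets were called each time. The count of probe sets called, 1 of 16 as reported, was 5 with the replicate block, 2 with quantile normalization (Fgfr1 1424050_s_at added), 2 with 1 probe set per gene and 2 without the dimmest probe sets (Fgf2 added in both, though it passes the filter on dim probe sets only through its light damaged values). With 1 array left out it ran from 0 to 2. It was 0 without light damaged replicate 1 or 3 and without dark adapted replicate 2, and without light damaged replicate 2 the 1 called was Fgf2. Over all probe sets 458 were called, 2109 with the replicate block (1569 higher and 540 lower, in place of 411 and 47) and between 128 and 380 with 1 array left out. Among the pathway genes 4 were called, 20 with the replicate block, 3 centred on the reference genes (2 higher and 1 lower) and 2 to 3 with 1 array left out. Centring on the reference genes shifted the median change of all probe sets to -0.30, from 0.01, and the calls to 188 higher and 302 lower; relative to this shift the 16 changes keep their order by construction, and Fgfr1 1436551_at and Fgfr3 1425796_a_at turned negative (-0.14 and -0.05). Quantile normalization gave 402 higher and 167 lower. Centring subtracts the mean change of the 7 reference genes, which were themselves mostly higher after light damage. Their median change was 0.27, with 6 positive and 1 negative, and none passed (2 rose with the block). Their mean level per array was 9.92 to 10.33 in the dark adapted and 10.32 to 10.51 in the light damaged group. Why they were higher was not tested, nor was the cause of the other differences. The dark level of Fgf2, under the lower quartile of each dark adapted array, limits its fold.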
